A study of Mus musculus with 30 samples.

Results

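The TAM receptors Axl, Mertk and Tyro3, the ligands Gas6, Pros1 and Mfge8, and the engulfment receptors Itgb5 and Megf10 were followed across sorted brain cells of an amyloid mouse model. These 8 genes were taken by symbol from the 36528 gene identifiers in the files. TAM receptors are receptor tyrosine kinases that bind dying cells and membrane debris through bridging proteins. Gas6 and Pros1 hold phosphatidylserine on a membrane at one end and a TAM receptor at the other, whereas Mfge8 bridges phosphatidylserine to integrins such as the one that contains Itgb5. Megf10 is a scavenger-type engulfment receptor, and in brain this machinery is known from microglia and astrocytes that clear apoptotic cells, synapses and amyloid.

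RNA was sequenced from 30 libraries, 5 in each of 6 groups. The sorted populations were neurons (NeuN+), astrocytes (Gfap+) and myeloid cells (Cd11b+), each from PS2APP transgenic mice and from their non-transgenic littermates (non-Tg), aged 11.5 months in every group. As background, the PS2APP line expresses mutant human presenilin 2 from the prion protein promoter and mutant human amyloid precursor protein from the Thy1 promoter, and develops amyloid plaques. Libraries that share an animal cannot be told from the labels, and p-values therefore reflect the spread among libraries, which may be technical in part.

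Each library held between 2015535 and 6749681 counts. Stated RNA yields were 10 to 20 ng for myeloid, 2 to 5 ng for astrocyte and 200 to 300 ng for neuron libraries. Yield and population therefore cannot be told apart when levels are compared between populations. The sort genes followed their labels: non-Tg means in CPM (counts scaled to the library total) were 115.8 for Rbfox3 in neuron, 731 for Gfap in astrocyte and 1537 for Itgam in myeloid libraries. In the non-Tg libraries of the other populations these genes had means of at most 17.9 CPM. These are bulk samples, so fewer cells of a type and less RNA per cell cannot be told apart.

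The first question was which cells carry the receptors and which the ligands. Levels of different genes were compared per gene length, as the deposited RPKM (reads scaled for gene length and library size), over the 5 non-Tg libraries of each population. Mertk was the highest of the 8 genes in myeloid libraries, Mfge8 in astrocyte libraries and Tyro3 in neuron libraries. Each member also differed between each pair of non-Tg populations at an adjusted p under 0.05 in edgeR's quasi-likelihood test. Beside such counts, many genes pass when cell types are compared: of 18101 genes tested, 26.8% were higher and 30.7% lower in myeloid than in astrocyte libraries, 34.1% higher and 33.7% lower in myeloid than in neuron libraries, and 26.9% higher and 24.8% lower in astrocyte than in neuron libraries.

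**Figure D1:**
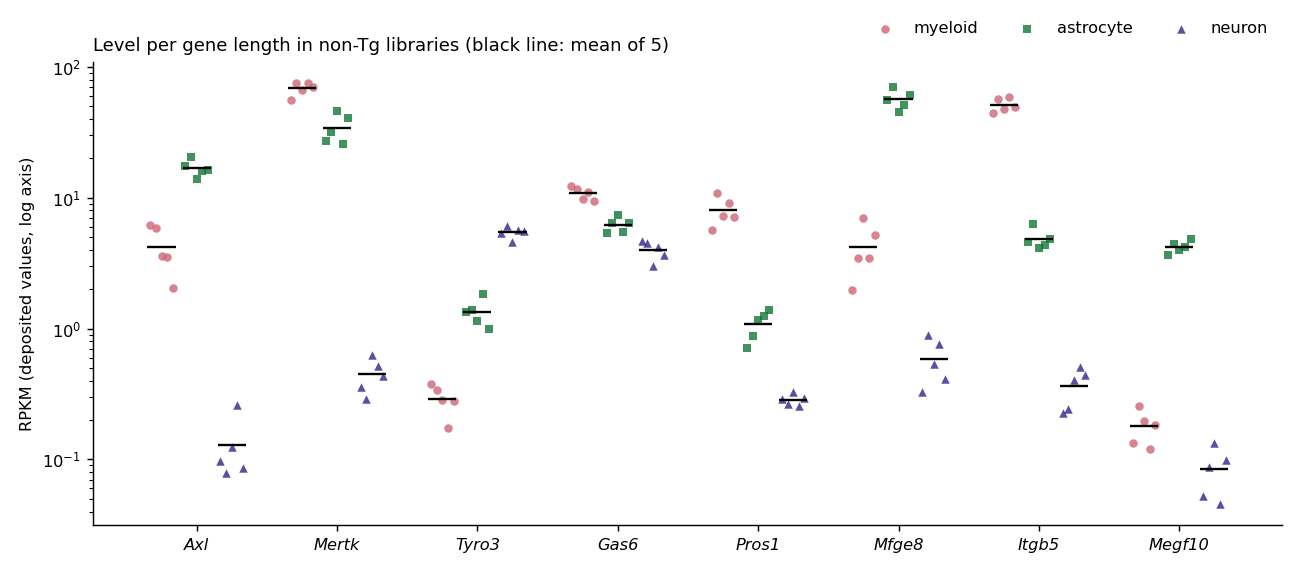
Deposited RPKM (log axis) of the 8 genes in non-Tg libraries, 1 point per library, with circles for myeloid, squares for astrocyte and triangles for neuron libraries and a black line at the mean of 5. Mertk and Itgb5 lead in myeloid, Mfge8 in astrocyte and Tyro3 in neuron libraries, while Gas6 spans the narrowest range between populations, from a mean of 4.01 in neuron to 10.8 RPKM in myeloid libraries.

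On GRCm38.p6, RefSeq places Tyro3 and Mertk on chromosome 2 (119797740 to 119818104 and 128698915 to 128803162) and Axl and Mfge8 on chromosome 7 (25756500 to 25788924 and 79133768 to 79149060). Gas6 lies on chromosome 8 (13465374 to 13494535), Itgb5 and Pros1 lie on chromosome 16 (33829665 to 33949338 and 62854307 to 62929346), and Megf10 lies on chromosome 18.

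Among the receptors, Mertk, the main TAM receptor of phagocytes, had RPKM values from 55.5 to 74.9 in non-Tg myeloid libraries, from 25.7 to 45.9 in astrocyte and from 0.290 to 0.633 in neuron libraries. These ranges did not overlap. Its level in myeloid libraries was 2.24-fold that in astrocyte libraries (log2 difference 1.17 ± 0.21 SE, adjusted p = 1.18e-05) and 182-fold that in neuron libraries (7.51 ± 0.28). Such folds between populations, here and below, come from the edgeR fit of counts and can differ from ratios of mean RPKM.

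Axl, a TAM receptor that binds Gas6 and is known to be induced in activated phagocytes, showed another order. It had 13.8 to 20.3 RPKM in non-Tg astrocyte, 2.03 to 6.16 in myeloid and 0.0784 to 0.261 in neuron libraries. The astrocyte level was 3.54-fold the myeloid level (myeloid over astrocyte, log2 −1.82 ± 0.24, adjusted p = 3.26e-08) and 136-fold the neuron level.

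Tyro3, the TAM receptor best known from neurons, ran the opposite way. Its non-Tg RPKM was 4.60 to 6.08 in neuron, 0.992 to 1.83 in astrocyte and 0.175 to 0.377 in myeloid libraries. The neuron level was 3.89-fold the astrocyte level (astrocyte over neuron, log2 −1.96 ± 0.23) and 16.1-fold the myeloid level (myeloid over neuron, log2 −4.01 ± 0.26). Summed over the 3 receptors, the RPKM was 72.9 ± 7.44 in non-Tg myeloid, 52.4 ± 7.55 in astrocyte and 6.03 ± 0.452 in neuron libraries (SD, n = 5 each). Mertk made up 93.7% ± 2.86 of that sum in myeloid and 64.6% ± 7.72 in astrocyte libraries, and Tyro3 made up 90.3% ± 3.42 of it in neuron libraries (SD, n = 5 each). Axl held 32.7% ± 6.99 of the sum in non-Tg astrocyte libraries and 5.90% ± 2.75 in myeloid libraries.

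**Figure D2:**
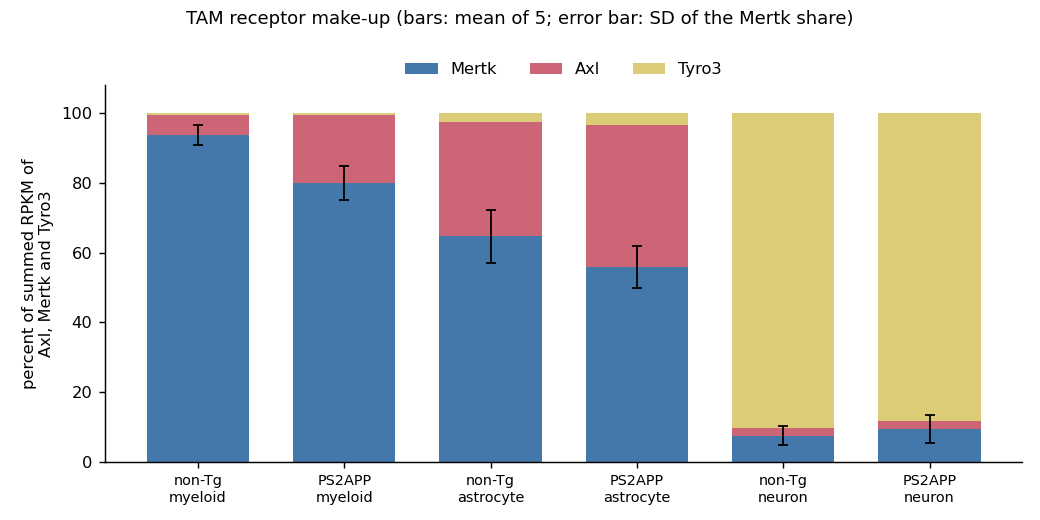
Share (percent) of Mertk, Axl and Tyro3 in the summed RPKM of the 3 TAM receptors in each group; bars are means of 5 libraries and the error bar is the SD of the Mertk share. Tyro3 fills 90.3% of the bar in non-Tg neuron libraries, and the Axl share is 5.90% in non-Tg and 19.7% in PS2APP myeloid libraries.

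The ligands were spread over the populations in different ways. Gas6, which binds all TAM receptors, had 9.43 to 12.2 RPKM in non-Tg myeloid, 5.35 to 7.44 in astrocyte and 2.999 to 4.69 in neuron libraries. The ranges did not overlap, but the steps were small: 1.96-fold from astrocyte to myeloid (log2 0.97 ± 0.18) and 1.61-fold from neuron to astrocyte libraries (log2 0.69 ± 0.18, adjusted p = 0.00143).

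Pros1, protein S, a blood anticoagulant that also binds Mertk and Tyro3, was largely a myeloid transcript among these sorts. It had 5.67 to 10.8 RPKM in non-Tg myeloid, 0.7104 to 1.39 in astrocyte and 0.255 to 0.329 in neuron libraries. The myeloid level was 8.39-fold the astrocyte level (log2 3.07 ± 0.35) and 32.7-fold the neuron level (log2 5.03 ± 0.39). Gas6 was 1.42 ± 0.424 times Pros1 per length in non-Tg myeloid, 6.06 ± 1.49 times in astrocyte and 14.2 ± 3.41 times in neuron libraries (SD, n = 5 each).

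Mfge8, also called lactadherin, was an astrocyte transcript. It had 45.2 to 70.1 RPKM in non-Tg astrocyte, 1.96 to 7.05 in myeloid and 0.327 to 0.887 in neuron libraries. The astrocyte level was 12.03-fold the myeloid level (myeloid over astrocyte, log2 −3.59 ± 0.26) and 99.5-fold the neuron level (astrocyte over neuron, log2 6.64 ± 0.31).

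The other engulfment receptors were divided between the glial sorts. Itgb5, the beta 5 integrin subunit, had 44.7 to 58.5 RPKM in non-Tg myeloid, 4.12 to 6.28 in astrocyte and 0.227 to 0.509 in neuron libraries, and its myeloid level was 11.98-fold that in astrocyte libraries (log2 3.58 ± 0.19). Megf10 had 3.63 to 4.83 RPKM in non-Tg astrocyte, 0.121 to 0.258 in myeloid and 0.0457 to 0.135 in neuron libraries. Its astrocyte level was 21.0-fold the myeloid level (myeloid over astrocyte, log2 −4.39 ± 0.34). Itgb5 and Mfge8, an integrin subunit and the bridging protein that its integrin binds, had their highest levels in different populations.

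The order of mean RPKM in non-Tg myeloid libraries was Mertk, Itgb5, Gas6, Pros1, Axl, Mfge8, Tyro3 and Megf10. Neighbours overlapped in range for Mertk and Itgb5, for Gas6 and Pros1, for Pros1 and Axl, for Axl and Mfge8, and for Tyro3 and Megf10. In astrocyte libraries the order was Mfge8, Mertk, Axl, Gas6, Itgb5, Megf10, Tyro3 and Pros1, and the neighbours that did not overlap were Mertk and Axl, Axl and Gas6, and Megf10 and Tyro3. In neuron libraries Tyro3 and Gas6 overlapped with each other and stood apart from the other 6 genes, whose levels were 0.887 RPKM or less in each non-Tg library.

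Some of the low levels lay in the range of markers that belong to another cell type, and others lay above it. Tyro3 in non-Tg myeloid libraries stood at 6.23% of its neuron level, and 12 neuron markers stood there at 6.23% to 33.3% of theirs (median 10.52%, highest Nefl). In non-Tg astrocyte libraries Tyro3 stood at 25.6% of its neuron level, and the neuron markers at 6.72% to 82.5% (median 21.8%). Mfge8 and Megf10 in non-Tg myeloid libraries stood at 8.34% and 4.74% of their astrocyte levels, and 12 astrocyte markers at 1.98% to 21.6% (median 4.25%, highest Aldoc). In non-Tg neuron libraries, Axl and Mertk stood at 0.74% and 1.24% of their astrocyte levels, and the astrocyte markers at 0.28% to 24.4% (median 0.90%). Pros1 in neuron libraries stood at 3.04% and Axl at 2.61% of the myeloid level, above the 12 myeloid markers at 0.35% to 1.52%. Pros1 there was also at 25.5% of its astrocyte level, and Gas6 was at 31.6% of its myeloid and 61.8% of its astrocyte level, all above the ranges of those markers. Each of these markers was detected in each population, none being at 0, and the part of other cells in these low levels was not tested.

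The next question was which members differ between PS2APP and non-Tg cells. In myeloid libraries Axl rose and Pros1 fell, and the other 6 members did not pass the test. Axl went from 72.9 ± 29.5 to 234 ± 64.1 CPM and Pros1 from 88.9 ± 21.2 to 44.0 ± 16.1 CPM (SD, n = 5 each). No member passed in astrocyte or neuron libraries. Of 12274 genes tested in myeloid libraries, 1.86% were higher and 1.5% lower in PS2APP libraries, against 1 of 8 members in each direction. An unadjusted edgeR p under 0.05 was found for 3 of 8 members and for 19.3% of all genes. The members' median log2 fold change was −0.21 and that of all genes −0.0021 (PS2APP over non-Tg). The groups did not overlap for Axl and Pros1, 2 of 8 members, and for 4.8% of all genes tested.

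**Figure D3:**
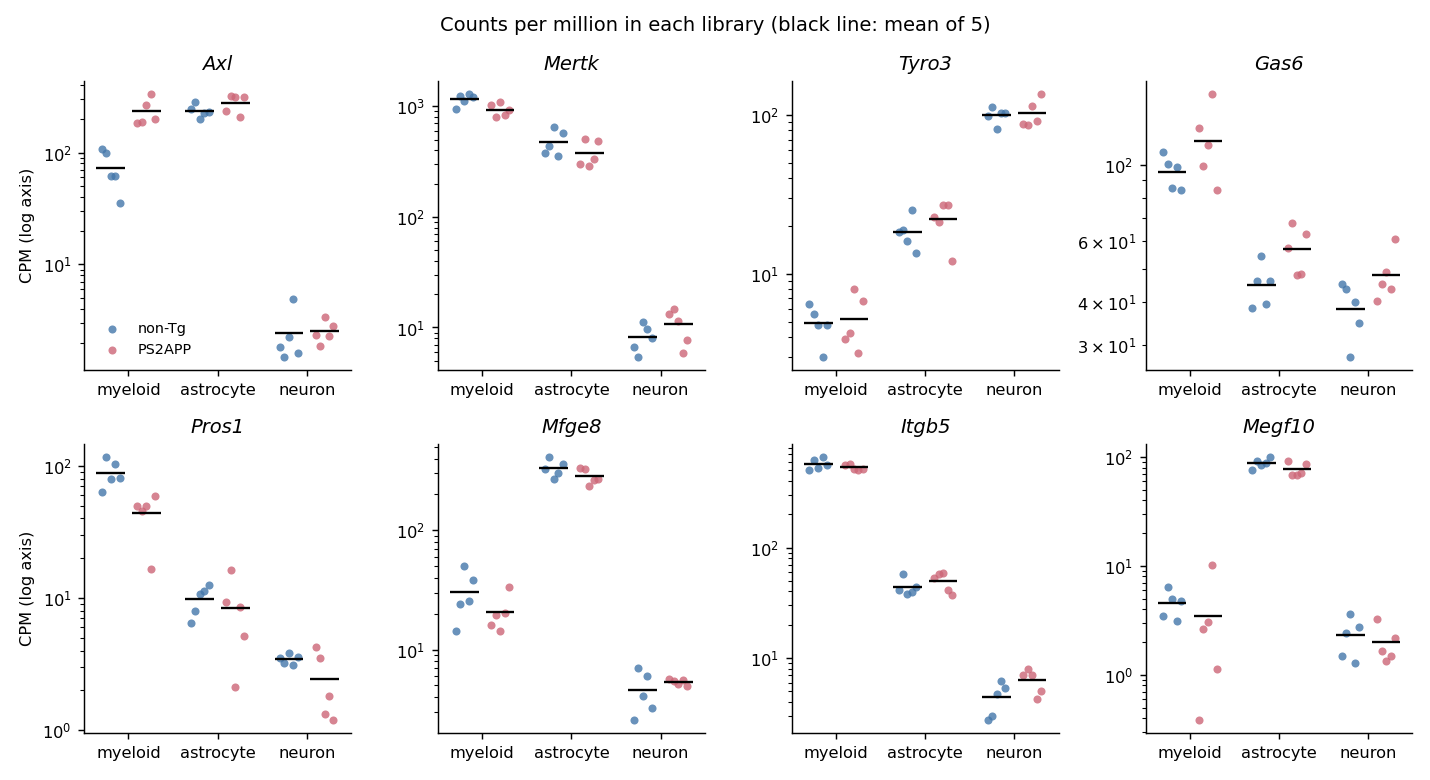
CPM (log axis) of each gene in each library, with blue points for non-Tg, red points for PS2APP and a black line at the mean of 5. In myeloid libraries the PS2APP points lie above all non-Tg points for Axl and below all of them for Pros1, and in the other panels and populations the groups overlap.

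Axl stood at 107, 98.2, 62.1, 61.3 and 35.5 CPM in non-Tg myeloid libraries 1 to 5, and at 183, 189.7, 264, 333 and 199.8 CPM in PS2APP myeloid libraries 1 to 5. The lowest PS2APP library lay above the highest non-Tg library, and the counts behind these values ran from 172 to 694. The rise was 3.20-fold (log2 1.68 ± 0.24 SE, edgeR adjusted p = 0.000305), and it stayed past the threshold with any 1 of the 10 libraries left out (log2 1.504 to 1.859). The Axl share of TAM receptor RPKM was 2.79% to 9.93% in non-Tg and 15.0% to 28.1% in PS2APP myeloid libraries. The summed TAM receptor RPKM was 62.0 to 81.1 in non-Tg and 60.0 to 81.5 in PS2APP myeloid libraries, so the make-up moved while the sums overlapped.

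Mertk stood at 952, 1238, 1125, 1286 and 1211 CPM in non-Tg and at 1017, 796, 1094, 833 and 928 CPM in PS2APP myeloid libraries. Most PS2APP libraries were lower, but the groups overlapped through non-Tg library 1, and the log2 difference of −0.32 ± 0.14 did not pass (edgeR adjusted p = 0.219). Mertk per length was 9.01 to 34.7 times Axl in non-Tg and 2.55 to 5.66 times Axl in PS2APP myeloid libraries. Tyro3 was low in both groups, at 2.99 to 6.41 and 3.18 to 7.98 CPM on 5 to 34 counts, and its log2 difference of 0.11 ± 0.49 leaves −0.88 to 1.09 within 2 SE.

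Pros1 stood at 63.6, 117, 80.0, 103 and 80.4 CPM in non-Tg and at 49.4, 45.4, 49.8, 16.6 and 58.8 CPM in PS2APP myeloid libraries. The highest PS2APP library lay just under the lowest non-Tg library, and PS2APP library 4 was far below the others of its group. The level fell by 1.002 on the log2 scale (± 0.25 SE, edgeR adjusted p = 0.0311), to 0.499 times the non-Tg level. This call was close to the threshold: it was kept in 4 of 10 fits with 1 library left out and was lost without PS2APP library 2 or 3 or non-Tg library 2, 3, 4 or 5, with adjusted p up to 0.102.

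Gas6, the other TAM ligand, stood at 109, 100.4, 85.3, 98.3 and 84.3 CPM in non-Tg and at 127, 98.8, 114, 159.8 and 84.3 CPM in PS2APP myeloid libraries. The groups overlapped, with the highest values in 3 PS2APP libraries, and the log2 difference of 0.29 ± 0.18 did not pass (adjusted p = 0.393). Gas6 was 1.08 to 2.16 times Pros1 per length in non-Tg and 1.81 to 12.2 times in PS2APP myeloid libraries. Mfge8 lay at 14.3 to 50.7 CPM in non-Tg and 14.4 to 33.7 CPM in PS2APP myeloid libraries (log2 −0.54 ± 0.33, adjusted p = 0.386).

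Itgb5 lay at 503 to 661 CPM in non-Tg and 503 to 575 CPM in PS2APP myeloid libraries. Its log2 difference of −0.11 ± 0.14 was among the best bounded, with −0.38 to 0.16 within 2 SE. Megf10 had between 1 and 39 counts in a myeloid library, and its difference of −0.47 ± 0.64 leaves −1.75 to 0.82 within 2 SE.

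Per length, the order of mean RPKM in PS2APP myeloid libraries was Mertk (56.9 ± 7.06), Itgb5 (49.4 ± 2.86), Axl (14.0 ± 3.98), Gas6 (13.7 ± 3.56), Pros1 (4.09 ± 1.48), Mfge8 (2.99 ± 1.09), Tyro3 (0.318 ± 0.123) and Megf10 (0.142 ± 0.162; SD, n = 5 each). Axl thus ranked 3 of 8, against 5 of 8 in non-Tg myeloid libraries, although its range of 10.97 to 20.4 RPKM overlapped that of Gas6, 9.90 to 19.2. In astrocyte and in neuron libraries the order of the 8 means was the same in both genotypes.

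**Figure D4:**
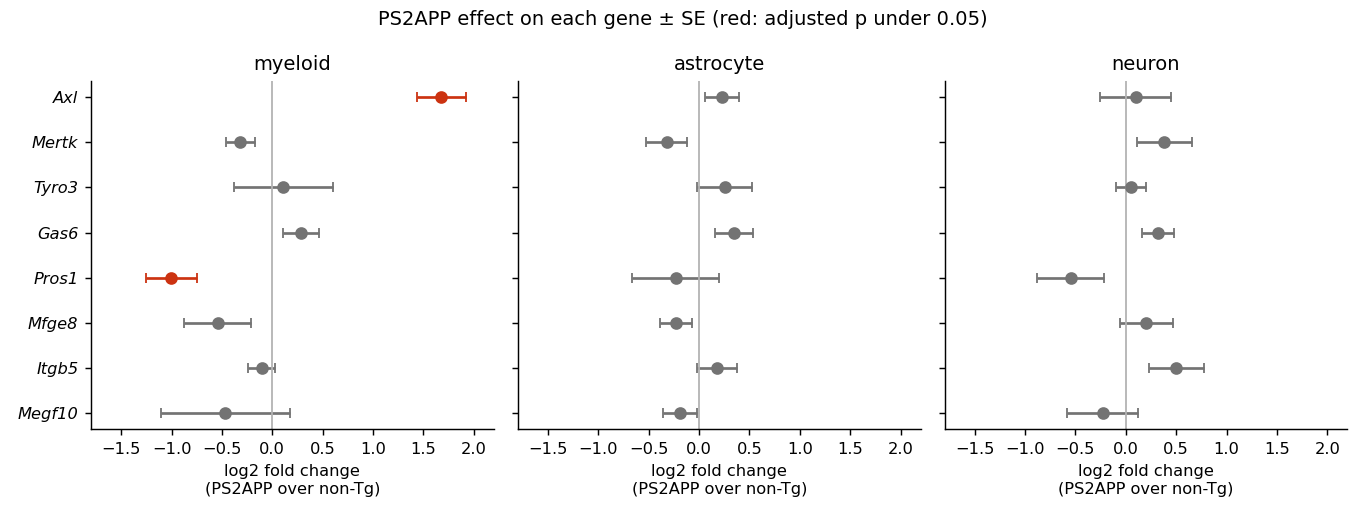
Log2 fold change of PS2APP over non-Tg (x axis) with its SE for each gene in myeloid, astrocyte and neuron libraries; red points passed an adjusted p of 0.05. The red points are Axl at 1.68 and Pros1 at −1.002, both in myeloid libraries, and the astrocyte values lie between −0.32 and 0.34.

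Other quantities moved with genotype in the myeloid libraries. The summed CPM of 12 neuron markers was 313 to 548 in non-Tg and 545 to 735 in PS2APP libraries, and that of 10 oligodendrocyte markers 667 to 1058 and 1144 to 1848. The neuron sums overlapped narrowly. Of 11 neuron markers tested, 1 passed, higher in PS2APP libraries (median log2 fold change 0.54). Of 7 oligodendrocyte markers tested, 2 passed, both higher, but the median of the 7 was −0.040. The sums of 12 astrocyte markers (595 to 1088 and 711 to 1082) and of 8 border-associated macrophage markers (604 to 1232 and 764 to 1159) also overlapped. None of these markers was at 0 in either group. Gfap, the astrocyte sort gene, was at 12.2 to 23.5 CPM in non-Tg and 82.4 to 172 CPM in PS2APP myeloid libraries, without overlap (log2 2.77 ± 0.25, edgeR adjusted p = 5.03e-07). Of the 12 astrocyte markers tested, 1 passed higher and 1 lower in PS2APP libraries, and the median log2 fold change was −0.28. Itgam, the myeloid sort gene, had means of 1537 and 1099 CPM (log2 −0.41 ± 0.14, adjusted p = 0.101). In non-Tg myeloid libraries Axl stood at 28.2% of its non-Tg astrocyte level, and the 12 astrocyte markers at 1.98% to 21.6% of theirs. In PS2APP myeloid libraries Axl stood at 73.5% of its PS2APP astrocyte level, and the 12 astrocyte markers at 2.06% to 21.8% of theirs. The 12 myeloid markers summed to 10051 to 11030 CPM in non-Tg and 7544 to 9631 CPM in PS2APP libraries, and 2 of them passed the test, both lower. Mitochondrial transcripts made up 5.46% to 12.7% of counts in non-Tg and 9.46% to 16.7% in PS2APP libraries, and the totals were 3578249 to 6143018 and 2015535 to 2908222 counts.

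With the other cells' markers as a covariate, Axl was 2.42 higher on the log2 scale (adjusted p = 0.00131) and Pros1 −0.76 (adjusted p = 0.399). With the mitochondrial share as a covariate, the log2 differences were 1.65 for Axl (adjusted p = 0.0402) and −0.58 for Pros1 (adjusted p = 0.554). Axl passed with either covariate and Pros1 with neither. The neuron and oligodendrocyte sums and the mitochondrial share moved with genotype, so these fits cannot fully separate covariate from genotype. A lost call therefore does not tell which of them carried the difference.

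**Figure D5:**
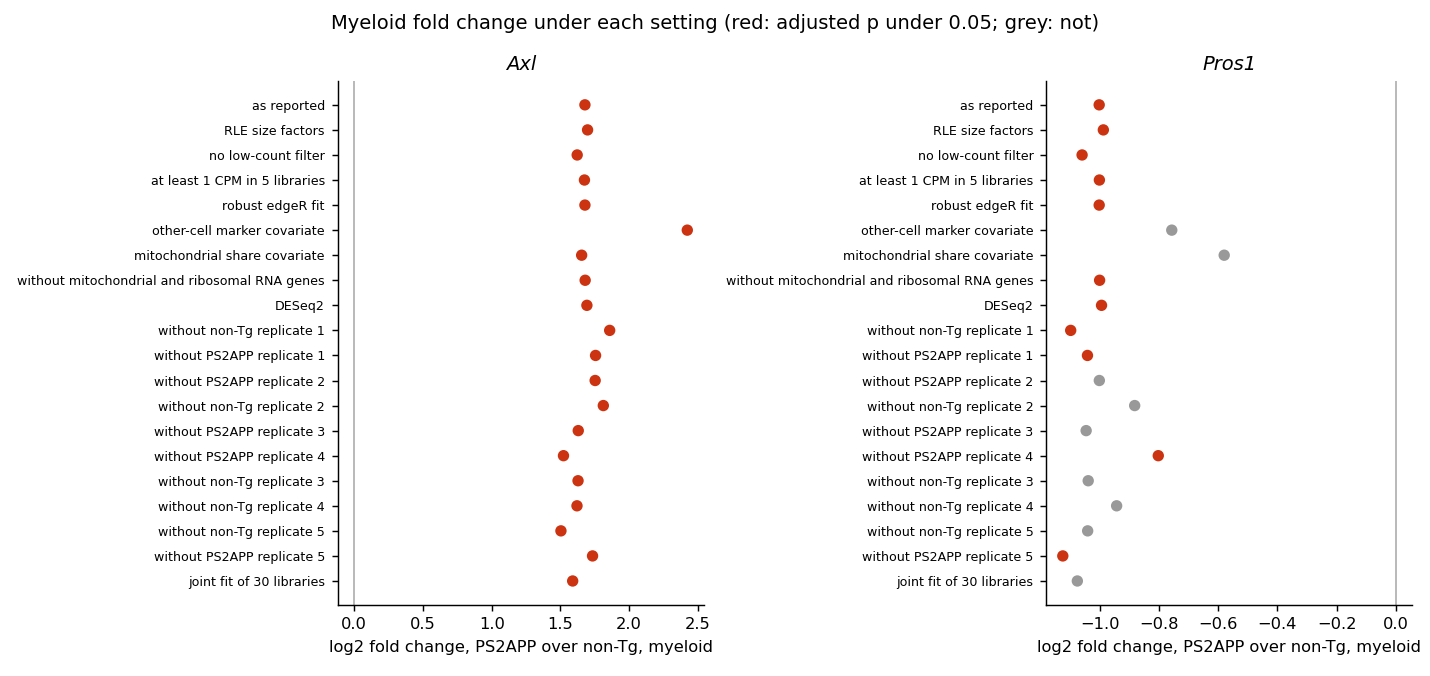
Myeloid log2 fold change of Axl and Pros1 (x axis, PS2APP over non-Tg) as reported, under 9 other settings and with each of 10 libraries left out; red points have an adjusted p under 0.05 and grey points do not. The Axl points lie between 1.504 and 2.42 and are all red, whereas the Pros1 points are all negative and grey in 9 places, 6 of them fits without 1 library.

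Axl and Pros1 were the members called in myeloid libraries, Pros1 only close to the threshold. The 250 bases before their start sites are therefore shown here, from RefSeq on GRCm38.p6, 5′ to 3′ on the strand of the gene. Axl lies on chromosome 7 (25756500 to 25788924, minus strand) and its window is chr7:25788734-25788983. That window precedes a RefSeq start at 25788733, inside the gene span, so 191 of its 250 bases lie within the span. Pros1 lies on chromosome 16 (62854307 to 62929346, plus strand) and its window is chr16:62854057-62854306. Capitals mark matches, on either strand, to 6 short motifs: GAGGAA (the core of the myeloid factor PU.1), GGGCGG (GC box), TGANTCA (AP-1), CACGTG (E-box), TTCNNNGAA (STAT) and AGGTCA (nuclear receptor element).
Axl: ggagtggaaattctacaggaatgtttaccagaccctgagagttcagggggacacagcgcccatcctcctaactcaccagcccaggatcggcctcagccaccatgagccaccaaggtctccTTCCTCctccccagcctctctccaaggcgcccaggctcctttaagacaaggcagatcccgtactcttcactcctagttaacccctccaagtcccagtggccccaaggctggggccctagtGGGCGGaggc
Pros1: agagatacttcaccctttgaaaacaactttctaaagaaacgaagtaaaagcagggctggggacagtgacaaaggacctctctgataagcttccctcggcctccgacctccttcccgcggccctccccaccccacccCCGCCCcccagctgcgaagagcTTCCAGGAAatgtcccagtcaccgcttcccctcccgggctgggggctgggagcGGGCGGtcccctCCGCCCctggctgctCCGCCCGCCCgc
The Axl window held 1 match to the PU.1 core, starting 130 bases before that start, and 1 GC box. The Pros1 window held 5 GC boxes, 2 of which overlap, and 1 STAT motif, and the other motifs had no match in either window. Of 32851 RefSeq windows of this length, 23.3% held the PU.1 core, 32.7% a GC box, 6.75% the AP-1 motif, 6.02% the E-box, 7.02% the STAT motif and 14.0% the nuclear receptor element. The PU.1 core also matched the Mfge8 window and not those of Mertk, Tyro3, Gas6 and Itgb5 (all 250 bases of the Tyro3 window lie inside its gene span), and these matches describe letters, not binding.

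In astrocyte libraries 0 of 8 members passed the test in edgeR, where 0.185% of 14043 genes did in either direction. None had an unadjusted p under 0.05 (17.2% of all genes did), and DESeq2 also called 0. The groups overlapped for each member, and did not for 2.99% of all genes tested.

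Axl stood at 246, 286, 199, 226 and 230.3 CPM in non-Tg and at 236, 318, 314, 208 and 315 CPM in PS2APP astrocyte libraries. Of the PS2APP values, 3 were the highest of all and the other 2 fell among the non-Tg values, and the log2 difference of 0.23 ± 0.17 leaves −0.11 to 0.56 within 2 SE. Mertk lay at 357 to 649 and 286 to 506 CPM (log2 −0.32 ± 0.21, adjusted p = 0.429), and Tyro3 at 13.6 to 25.2 and 12.1 to 27.0 CPM (0.25 ± 0.27).

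Mfge8, the highest member in astrocyte libraries, stood at 328, 413, 271, 303 and 361 CPM in non-Tg and at 331, 325, 236, 264 and 271 CPM in PS2APP libraries. The PS2APP values lay toward the lower end, but the groups overlapped and the difference of −0.23 ± 0.16 did not pass (adjusted p = 0.469). Gas6 stood at 38.4, 46.1, 54.5, 39.4 and 45.9 CPM in non-Tg and at 57.3, 67.9, 48.0, 48.2 and 63.0 CPM in PS2APP astrocyte libraries. All but 1 of the non-Tg values lay under the PS2APP values, and the difference of 0.34 ± 0.19 had the smallest adjusted p of the members there (0.356). Megf10 lay at 75.6 to 100.4 and 68.5 to 91.4 CPM, and its difference of −0.19 ± 0.17 leaves −0.52 to 0.14 within 2 SE. Pros1, with 7 to 87 counts, was the least well bounded, at −1.09 to 0.63 within 2 SE.

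In the astrocyte libraries the summed CPM of neuron markers was 722 to 1050 in non-Tg and 1175 to 2406 in PS2APP libraries, and that of myeloid markers 41.2 to 73.2 and 76.5 to 140.4. Of 9 myeloid markers tested, 2 passed, both higher in PS2APP libraries, and no marker of either list was at 0. Mitochondrial transcripts made up 2.41% to 4.74% of counts in non-Tg and 5.60% to 8.60% in PS2APP astrocyte libraries, without overlap. With the summed markers of other cells or with the mitochondrial share as a covariate, again no member passed.

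In neuron libraries 0 of 8 members passed in edgeR, where 1 gene of 16064, or 0.00623%, did in either direction. None had an unadjusted p under 0.05 (22.9% of all genes did), and DESeq2 called 0. The groups overlapped for each member, and did not for 3.13% of all genes tested. Tyro3 stood at 98.9, 112, 81.4, 103 and 103 CPM in non-Tg and at 87.3, 86.9, 114, 92.1 and 135 CPM in PS2APP neuron libraries. The groups overlapped, with the lowest value in a non-Tg and the highest in a PS2APP library. The difference of 0.05 ± 0.15 leaves −0.25 to 0.34 within 2 SE. Gas6 stood at 45.1, 43.7, 27.7, 40.1 and 34.9 CPM in non-Tg and at 40.3, 45.2, 48.8, 43.7 and 61.0 CPM in PS2APP neuron libraries. The highest 3 values were from PS2APP libraries, and the difference was 0.32 ± 0.16 (adjusted p = 0.241). Gas6 was thus above 0 by 0.29, 0.34 and 0.32 on the log2 scale in the 3 populations and passed the test in none. The other 6 members had means of at most 10.7 CPM in a neuron group, on 6 to 63 counts a library.

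Whether the PS2APP effect differed between populations was tested in 1 edgeR fit of all 30 libraries. The Axl effect was larger in myeloid than in astrocyte libraries by 1.38 ± 0.33 on the log2 scale (adjusted p = 0.031), and no other member passed. Of 18101 genes tested, 0.293% had a higher and 0.464% a lower effect in myeloid libraries. The call was kept in 13 of 20 fits with 1 library left out, and was lost without non-Tg myeloid library 3, 4 or 5, PS2APP myeloid library 4, non-Tg astrocyte library 2 or PS2APP astrocyte library 1 or 4 (adjusted p up to 0.064). The difference stayed between 1.20 and 1.55 in these 20 fits.

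Between myeloid and neuron libraries the Axl effect differed by 1.47 ± 0.42, which did not pass in edgeR (adjusted p = 0.241) and passed in DESeq2 (adjusted p = 0.0498). There 0 of 8 members passed in edgeR, 4 had an unadjusted p under 0.05 (9.65% of all genes did), and 0.105% of all genes passed. Between astrocyte and neuron libraries 0 of 8 passed in edgeR and in DESeq2, 1 had an unadjusted p under 0.05 (4.97% of all genes did), and 0.0331% of all genes passed. The Pros1 effect did not pass a test of difference between populations: myeloid minus astrocyte gave −0.83 ± 0.48 on the log2 scale (adjusted p = 0.481).

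Around the members, 77 genes of 5 lists of the same machinery were examined. In myeloid libraries 66 were tested, and 2 rose and 2 fell, or 3.03% each way against 1.86% and 1.5% of all genes. An unadjusted edgeR p under 0.05 was found for 20 of the 66 (30.3%, against 19.3% of all genes). Of 12 other bridging ligands and opsonins tested, Apoe rose (log2 1.48 ± 0.16, adjusted p = 6.37e-06), a lipid carrier counted here among the opsonins. Of 15 engulfment signalling genes, Tyrobp, the adaptor of Trem2, rose by 0.64 ± 0.15 (adjusted p = 0.0221). Of 12 other phosphatidylserine and apoptotic cell receptors, 2 fell. They were Itgav, the alpha subunit that pairs with Itgb5, at 102 ± 15.0 and 58.8 ± 9.57 CPM (log2 −0.79 ± 0.18, adjusted p = 0.0221), and Havcr2, also called Tim-3, at 189 ± 38.3 and 107.8 ± 37.1 CPM (−0.81 ± 0.20, adjusted p = 0.0311). The median log2 change of each list was 0.40 for the ligands and opsonins, −0.00082 for signalling and −0.023 for the receptors, against −0.0021 for all genes.

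With 1 library left out, Apoe kept its call in 10 of 10 fits, Tyrobp in 8, Itgav in 7 and Havcr2 in 2, and the last 3 were lost with either covariate. With the other-cell markers and the mitochondrial share as covariates, the log2 differences were 0.53 and 0.59 for Tyrobp, −0.84 and −0.72 for Itgav, and −0.78 and −0.46 for Havcr2. Genes of phosphatidylserine exposure and clearance signals (14 tested, median −0.24, smallest p for the flippase Atp11b at −0.73 ± 0.26) and of TAM regulation (13 tested, median 0.11) gave no call. Of these last, Adam10, a protease that can shed Axl, had the smallest p, at −0.77 ± 0.24 (adjusted p = 0.075).

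In astrocyte libraries 1 of 53 tested genes of these lists passed, C4b, a complement opsonin, at 386 ± 38.2 and 877 ± 197 CPM (log2 1.18 ± 0.17, adjusted p = 0.00504). It was called in 10 of 10 fits without 1 library and with neither covariate (log2 0.87 with the other-cell markers and 0.72 with the mitochondrial share, adjusted p = 0.574 and 0.953). The mitochondrial share and the neuron and myeloid marker sums did not overlap between the genotypes in astrocyte libraries. The covariate fits thus cannot separate covariate from genotype there. An unadjusted edgeR p under 0.05 was found for 12 of the 53 list genes in astrocyte libraries (22.6%, against 17.2% of all genes). In neuron libraries 0 of 58 passed in edgeR, 15 had an unadjusted p under 0.05 (25.9%, against 22.9% of all genes) and DESeq2 called 0.

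Over the 30 libraries, the genes with the pattern most like that of a member were ranked by Pearson's r of log2 CPM among 9001 genes with a mean log2 CPM of at least 3. Such values mostly describe cell type, since the libraries fall into 3 populations. Axl was followed most closely by Apoe (r = 0.988), Dock1 (0.981) and Rgl3 (0.978). For Mertk these were Abca1 (0.993), Selenop (0.990) and Apobec3 (0.990), for Itgb5 Sall1 (0.994), Pld1 (0.993) and Akna (0.993), and for Pros1 Samhd1 (0.969), Wnk1 (0.962) and Tbxas1 (0.960). For Mfge8 they included Lrp4 (0.982) and Gja1 (0.981), and for Megf10 they were Gpc5 (0.972), Pcdhga8 (0.968) and Pcdhga1 (0.968), the last 2 of which share exons. For Tyro3 they were Cttnbp2 (0.976), Aak1 (0.975) and Tmem178b (0.973). Gas6, the member with the flattest pattern, had the lowest values, with Pcif1, Mapk3 and Zfp710 at 0.955, 0.954 and 0.954.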

How the data were processed

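RNA of 30 sorted libraries was analysed. Per the file headers, the authors deposited a count of uniquely aligned reads per gene and a size-factor-adjusted RPKM value. The submitters' processing notes name the aligner GSNAP and the build GRCm38; the gene annotation is not given in the sources used here. Counts were used in each test. Deposited RPKM served for levels between genes and equalled counts times 1 factor per library over gene length. CPM used TMM factors within a population. For the sort genes, the percent levels and the ranking of genes most like a member, TMM factors were taken over all 30 libraries. The log2 differences given for Gfap and Itgam came from the myeloid fit alone. Counts of libraries of a group differed by more than sampling noise in every pair (chi-square over its degrees of freedom at least 4.06). Total counts limit low genes: 3 counts are 0.444 to 1.49 CPM.

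PS2APP was tested against non-Tg in each population alone in edgeR 4.0.16 (R 4.3.3; filterByExpr, TMM, quasi-likelihood test, Benjamini-Hochberg adjustment over all genes tested, adjusted p of 0.05). Levels between non-Tg populations and differences between effects came from 1 edgeR fit of 6 groups. DESeq2 1.42.0, other size factors and filters, covariates and leaving out each library were alternatives. The test was tried on simulated data. Members, lists and motifs were chosen with earlier results of these data known. All 8 members are named, with list genes past the threshold or of smallest p in a list, and the 3 genes most like each member. A gene that met this rule is not reported here. All 8 members passed the filter in each fit. In GENCODE vM21 on GRCm38, 34 exonic bases of Gas6 (1.33%) overlap Tmem255b on the other strand, and 264 of 3639 windows of 50 bases of Itgb5 occur in Gm38317, so uniquely aligned reads may undercount Itgb5. No sequence of Megf10 is printed. Replicate numbers only name libraries.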

Additional observations from a re-analysis of the deposited data

Results flagged for a closer look

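In 3 of 48 groups of 5 libraries, 1 library's CPM stood far from the others of its group; chance flags about 1 group in 20. Axl reached 4.90 CPM in non-Tg neuron library 4, against 1.49 to 2.25 CPM in the other 4. Itgb5 reached 57.1 CPM in non-Tg astrocyte library 2, against 38.2 to 43.6 CPM. Megf10 reached 10.2 CPM in PS2APP myeloid library 4, on 16 counts, against 0.386 to 3.04 CPM. The PS2APP effect on Axl differed between myeloid and astrocyte libraries by 1.38 on the log2 scale in edgeR (adjusted p = 0.031).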

How the results depend on the processing

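No paired analysis was possible because the labels give no replicate number or animal. Of called member values, 138 kept direction and call under the alternatives other than left-out libraries, and 3 lost the call, all of Pros1 in myeloid libraries. There 1 member, Axl, was called in place of 2 with the other-cell marker covariate, the mitochondrial share covariate or the joint fit of 30 libraries (Pros1 adjusted p = 0.051), and 1 to 2 with a library left out. Without 1 library, 0 to 1 members were called for the effect in myeloid against astrocyte libraries. DESeq2 called 1 for myeloid against neuron libraries, where edgeR called 0. No level between non-Tg populations lost its call. Of the 77 listed pathway genes, DESeq2 called 10 in myeloid and 5 in astrocyte libraries, where edgeR called 4 and 1. The share of all genes that DESeq2 called is not given here, so these counts are not read as a trait of the lists.

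Signs that turned were all of uncalled values. With the other-cell marker covariate in astrocyte libraries, Mertk was 0.16, Tyro3 −0.34, Pros1 0.45, Itgb5 −0.0056 and Megf10 0.065. With the mitochondrial share covariate, astrocyte values were Axl −0.074, Mertk 0.10, Tyro3 −0.12, Pros1 0.72, Mfge8 0.027, Itgb5 −0.12 and Megf10 0.18, Itgb5 in myeloid libraries 0.0058, and Axl in neuron libraries −0.20. With 1 library left out, the range was −0.10 to 0.23 for Tyro3 in myeloid, −0.61 to 0.016 for Pros1 in astrocyte, −0.053 to 0.52 for Axl and −0.067 to 0.11 for Tyro3 in neuron libraries, and −0.33 to 0.24 for Axl between astrocyte and neuron effects. Uncalled effect differences of other members also crossed 0 in this way: Mertk −0.17 to 0.076 (myeloid minus astrocyte), Tyro3 −0.18 to 0.15 (myeloid minus neuron) and, astrocyte minus neuron, Gas6 −0.072 to 0.10, Pros1 −0.080 to 0.57 and Megf10 −0.17 to 0.24. The causes were not tested.

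RLE size factors moved the members' log2 levels by −0.17 (myeloid over astrocyte) and −0.23 (myeloid over neuron), and the effect differences of myeloid libraries by 0.13 and 0.14. They turned no level's direction, but uncalled effect differences crossed 0: Mertk from −0.058 to 0.073 and Gas6 from −0.13 to 0.019 (myeloid minus astrocyte), and Gas6 from −0.13 to 0.021 (myeloid minus neuron) and from −0.0030 to 0.0023 (astrocyte minus neuron). DESeq2 turned the same 4, and Megf10 went from 0.0090 to −0.0016 (astrocyte minus neuron) with a filter of at least 1 CPM in 5 libraries. Genes at a few counts, Megf10 in myeloid and Axl and Pros1 in neuron libraries, are limited by depth.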
